A study of Mus musculus with 12 samples.

Results

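Toll-like receptors (TLRs) and NOD-like receptors (NLRs) are germline-encoded sensors of microbial and damage-derived molecules, and 35 of their genes were followed here across 12 mouse RNA-seq libraries. They were taken by symbol from the 33100 rows of the count table: 12 were Tlr genes followed by a number, and 23 were Nlrc, Nlrp or Nlrx genes followed by a number, or Nod1 and Nod2. The samples were labelled as natural killer (NK) cells sorted from the tumor or the spleen of conditional knockout (cKO) mice, which lack 1 gene in some of their cells, or of control (WT) mice. The groups were tumor cKO, tumor WT, spleen cKO and spleen WT, with 3 libraries each. The labels give no strain, age, tumor type or Cre driver and do not say whether a library came from 1 mouse or from a pool, so p-values measure the spread between these libraries, which may be technical. The knocked-out gene was not analysed here, so its level could not serve as a check of the genotype labels.

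TLRs sit in the plasma membrane, where they meet lipids, lipoproteins and flagellin, or in endosomes, where they meet nucleic acids. Most signal through the adaptor MyD88 to NF-kB and interferon regulatory factors. NLRs are cytosolic: NOD1 and NOD2 respond to fragments of peptidoglycan and signal through RIPK2, several NLRPs and NLRC4 assemble inflammasomes that activate caspase-1, and others such as NLRC5 and NLRX1 act on transcription or signalling. Macrophages, dendritic cells and B cells each express their own set of these receptors.

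The labelled cell type has to be read beside the markers of other cells. The summed level of 10 NK genes was 43 to 64.5 CPM (counts scaled to the library's total) in tumor cKO, 59.2 to 206 CPM in tumor WT, 1330 to 1650 CPM in cKO spleen libraries and 1290 to 1690 CPM in WT ones. The 12 macrophage genes summed to 1520 to 4310 CPM in tumor cKO, 13200 to 28100 CPM in tumor WT, 563 to 732 CPM in cKO spleen libraries and 321 to 396 CPM in WT ones. The 10 B-cell genes summed to 16.2 to 38 CPM in tumor cKO, 5.7 to 21.6 CPM in tumor WT, 2330 to 2740 CPM in cKO spleen libraries and 2640 to 2990 CPM in WT ones. Macrophage genes therefore outweighed NK genes in the tumor libraries, and B-cell genes outweighed NK genes in the spleen libraries, which goes against a pure NK label. The 10 dendritic-cell genes summed to 157 to 331 CPM in tumor cKO, 780 to 1050 CPM in tumor WT, 550 to 621 CPM in cKO spleen libraries and 587 to 610 CPM in WT ones, with Siglech at 0 in both spleen groups. The 10 T-cell genes summed to 534 to 740 CPM in tumor cKO, 247 to 307 CPM in tumor WT, 108 to 180 CPM in cKO spleen libraries and 81.3 to 106 CPM in WT ones. The 10 neutrophil genes summed to 37.7 to 115 CPM in tumor cKO, 96.7 to 211 CPM in tumor WT, 3.06 to 27 CPM in cKO spleen libraries and 2.74 to 11.8 CPM in WT ones, with Ly6g at 0 in tumor WT, Retnlg and Ly6g at 0 in spleen cKO, and Ly6g and Camp at 0 in spleen WT. No marker of the NK, macrophage, B-cell and T-cell lists was at 0 in any group. In such bulk samples, fewer cells of a type and less RNA per cell cannot be told apart. Library totals ran between 9542329 and 37118494 counts.

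Of the 35 genes, 22 passed the filter on low counts, 11 Tlr genes and 11 NLR or Nod genes. The 13 that did not were Tlr11, Nlrp12, Nlrp2, Nlrp6, Nlrp14, Nlrp4a, Nlrp4b, Nlrp4c, Nlrp4d, Nlrp4g, Nlrp5-ps, Nlrp9b and Nlrp9c. Nlrp12 had the most counts among them, 96 over all 12 libraries, and the lowest total among the tested genes was 254, for Tlr12. The 10 NLRPs known mainly from egg and early embryo had 76 counts in all. Of the untested genes, Nlrp12, a modulator of NF-kB signalling known from myeloid cells, had 0, 0.24 and 0 CPM in tumor cKO, against 1.92, 0.676 and 1.51 CPM in tumor WT. Tlr11, a sensor of the protozoan protein profilin, had no count in tumor cKO, against 0.233, 0.507 and 0.362 CPM in tumor WT. Neither was tested.

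On mm10, 12 of the 35 genes lie on chromosome 7, most of them Nlrp genes with few or no counts here. Tlr1 (chr5:64924679-64933563) and Tlr6 (chr5:64952031-64960097) are neighbours, as are Tlr8 (chrX:167242696-167264329) and Tlr7 (chrX:167304929-167330558). Nlrp3 (chr11:59541568-59566956) and the Nlrp1 genes (chr11:71092236-71285232) share chromosome 11, and Tlr4 lies at chr4:66827584-66930284. All 35 overlap the GENCODE vM21 gene of the same symbol.

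Compared per length, as depth-scaled reads per kilobase (RPKM), the order of the receptors differed between the tissues. In tumor cKO the highest mean levels were those of Nlrp3 (37.7 RPKM), Tlr2 (11.5 RPKM) and Nlrc5 (8.84 RPKM). In tumor WT the same 3 genes led, with 57.4 RPKM for Nlrp3, 11.7 RPKM for Tlr2 and 9.88 RPKM for Nlrc5. In spleen cKO the order was Nlrc5 (19.6 RPKM), Tlr1 (14.1 RPKM), Nod1 (10.3 RPKM), Tlr9 (8.79 RPKM) and Nlrc3 (6.83 RPKM). In spleen WT the same 5 genes stood in the same order, at 17.9, 13.6, 10.5, 7.58 and 6.58 RPKM. Nlrp3, first in both tumor groups, had no count in 5 of the 6 spleen libraries.

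**Figure D1:**
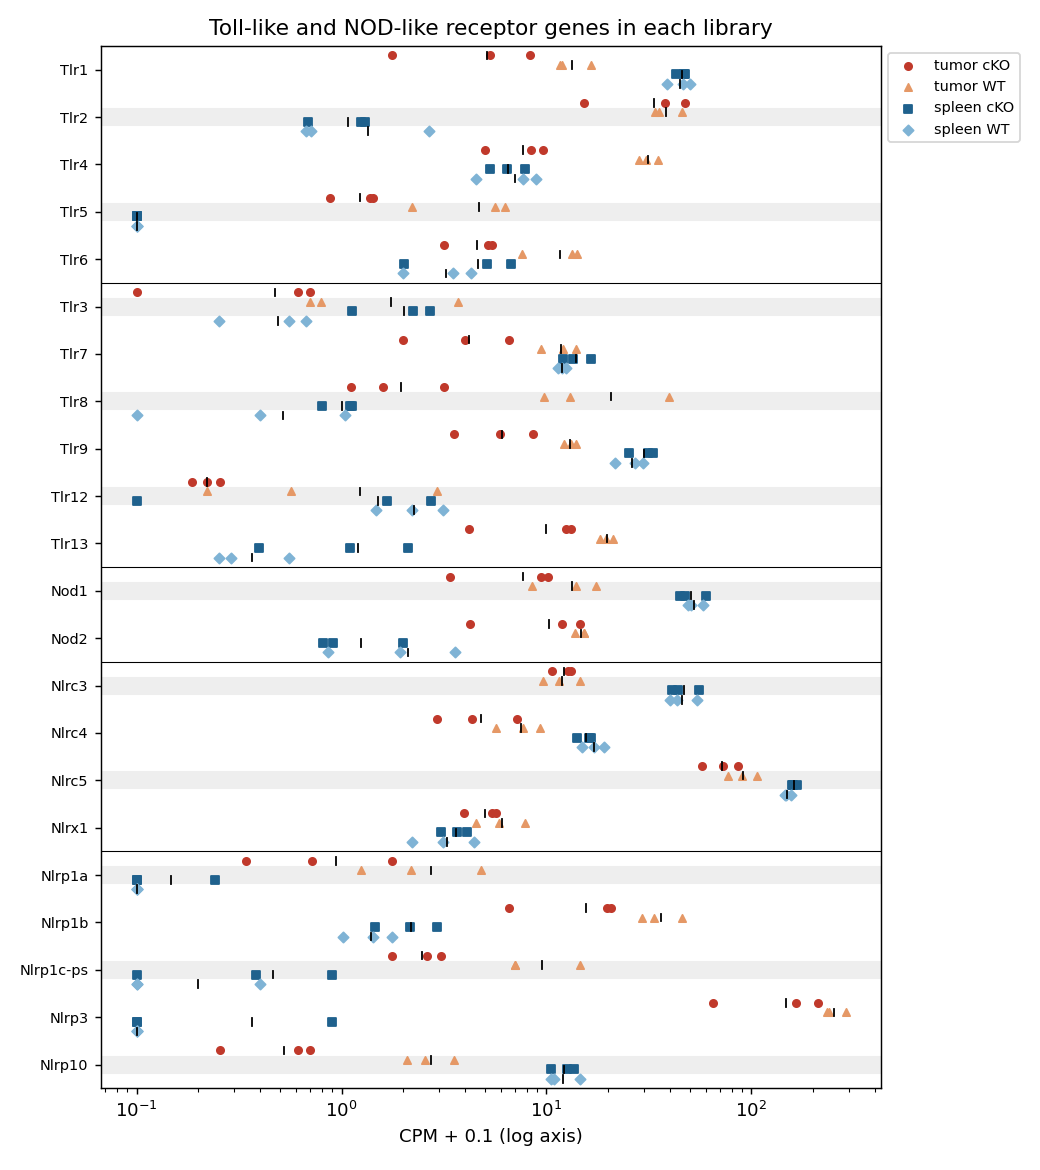
CPM plus 0.1 of the 22 tested receptor genes, on a log axis, in each of the 12 libraries, with the mean of each group as a black bar; the blocks from top to bottom are cell-surface TLRs, endosomal TLRs, NOD1 and NOD2, NLRC and NLRX genes, and NLRPs. Nlrp3 and Tlr2 sit far to the right in tumor libraries, and Tlr1, Tlr9, Nod1 and Nlrc5 sit to the right in spleen libraries.

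The first comparison asked which receptor genes differed between cKO and WT libraries in tumor. No tested receptor gene rose and 10 of 22 fell, by edgeR's quasi-likelihood test with Benjamini-Hochberg adjustment over 16831 genes, with a gene called at an adjusted p under 0.05. Across all tested genes 38% were called, 16.4% higher and 21.6% lower. The median log2 fold change was −1.30 over the 22 receptor genes and −0.117 over all tested genes. The CPM values of the groups did not overlap for 13 of the 22, all lower in tumor cKO, where 50.3% of all tested genes did not overlap and 27.3% were lower without overlap. In the tumor cKO group, replicate 3 was the lowest library for 18 of the 22 genes, against 34.1% of all tested genes, and its macrophage sum, 1520 CPM, was also the lowest of the 6 tumor libraries. Without tumor cKO replicate 3, 7 receptor genes were called, with Tlr5, Tlr6 and Nlrp1c-ps lost. Tumor WT replicate 2 was the highest library of its group for 15 of the 22, against 45.2% of all tested genes, and had the highest macrophage sum, 28100 CPM. Without tumor WT replicate 2, 8 were called, with Nlrp1b and Nlrp1c-ps lost, and without both libraries 8 were called, with the same 2 lost. All 12 macrophage markers fell in tumor cKO, with a median log2 fold change of −2.83. Of the other lists, 7 of 10 NK genes, 5 of 9 tested dendritic-cell genes and 2 of 8 tested neutrophil genes fell (median log2 fold changes −1.47, −1.41 and −1.43), and 5 of 10 T-cell genes and 2 of 10 B-cell genes rose (medians 0.775 and 0.912). The part of these cell types in the receptor changes was not tested.

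Among cell-surface TLRs, 4 of 5 fell. Tlr4, the receptor for lipopolysaccharide, had 8.33, 9.56 and 4.92 CPM in tumor cKO, against 30.4, 28.2 and 34.9 CPM in tumor WT. The groups were well apart, with a log2 fold change of −2.04 ± 0.287 (SE; edgeR adjusted p = 2.15e-04). Tlr5, the flagellin receptor, had 1.28, 1.32 and 0.775 CPM in tumor cKO, against 5.52, 2.11 and 6.15 CPM in tumor WT, with a log2 fold change of −2.02 ± 0.589 (edgeR adjusted p = 0.024). Its call was lost when any of 5 tumor libraries was left out, tumor WT replicate 2 being the exception, with adjusted p between 0.0547 and 0.0885. Tlr1 and Tlr6 are the partners with which TLR2 forms lipoprotein-sensing heterodimers. Tlr1 had 5.21, 8.18 and 1.67 CPM in tumor cKO, against 11.8, 16.4 and 11.5 CPM in tumor WT, and fell by 1.43 ± 0.394 on the log2 scale (edgeR adjusted p = 0.0138), a call lost in a fit of the 6 tumor libraries alone (adjusted p = 0.0879). Tlr6 had 5.08, 5.35 and 3.06 CPM in tumor cKO, against 13.2, 7.46 and 14 CPM in tumor WT, and fell by 1.36 ± 0.434 on the log2 scale (edgeR adjusted p = 0.0251). The Tlr6 call was lost without tumor cKO replicate 3 (adjusted p = 0.098), without tumor WT replicate 1 (0.068) or without tumor WT replicate 3 (0.0774). Tlr2 itself, their shared partner, had 47.4, 37.6 and 15.2 CPM in tumor cKO, against 33.7, 45.8 and 35.3 CPM in tumor WT. These values overlapped, and the Tlr2 log2 fold change was −0.20 ± 0.439 (edgeR adjusted p = 0.752).

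Among endosomal TLRs, 3 of the 6 tested fell. Tlr8, known in humans as a sensor of RNA degradation products, had 3.07, 1.5 and 1.01 CPM in tumor cKO, against 9.65, 39.3 and 12.9 CPM in tumor WT. All tumor cKO values lay below all tumor WT values, with a log2 fold change of −3.47 ± 0.701 (edgeR adjusted p = 0.00243). The Tlr8 value was set in part by tumor WT replicate 2, without which it was −2.59 (adjusted p = 0.0051). Tlr7, a sensor of single-stranded RNA, had 6.49, 3.91 and 1.9 CPM in tumor cKO, against 11.9, 13.9 and 9.28 CPM in tumor WT, and its log2 fold change was −1.52 ± 0.345 (edgeR adjusted p = 0.00409). Tlr9, a sensor of unmethylated CpG DNA, had 5.85, 8.54 and 3.45 CPM in tumor cKO, against 13.8, 12.1 and 13 CPM in tumor WT, and its log2 fold change was −1.14 ± 0.267 (edgeR adjusted p = 0.00501). Neither gene's groups overlapped. Tlr13, a mouse sensor of bacterial ribosomal RNA, had 13, 12.3 and 4.11 CPM in tumor cKO, against 19.4, 18.2 and 21 CPM in tumor WT, without overlap but not called (log2 fold change −0.99 ± 0.470, edgeR adjusted p = 0.114). Tlr3, which senses double-stranded RNA, and Tlr12, a partner of TLR11, were low and were not called in the fit of all 12 libraries. The Tlr3 log2 fold change was −2.20 ± 0.995 (edgeR adjusted p = 0.0986), and −0.837 without tumor WT replicate 2. For Tlr12 it was −3.215 ± 1.24 (edgeR adjusted p = 0.0561), and −1.223 without tumor WT replicate 2. Tlr12 was called lower by DESeq2 (adjusted p = 0.0211), without tumor WT replicate 3 (0.0277) or without spleen cKO replicate 2 (0.023). Without the filter on low counts both were called lower (edgeR adjusted p = 0.0288 and 0.00122). Tlr3 had 0.512, 0.601 and 0 CPM in tumor cKO, against 0.698, 3.6 and 0.603 CPM in tumor WT, and 7.32% of its exon bases overlap an antisense gene. Tlr12 had 0.0854, 0.12 and 0.155 CPM in tumor cKO, against 0.465, 2.82 and 0.121 CPM in tumor WT, so that tumor WT replicate 2 stood far above every other tumor library for both genes.

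Of the NLRPs tested, 3 of 5 fell. Nlrp10, an NLRP that lacks the leucine-rich repeats of its relatives, had 0.512, 0.601 and 0.155 CPM in tumor cKO, against 2.44, 3.44 and 1.99 CPM in tumor WT. Its groups did not overlap, and its log2 fold change of −2.68 ± 0.407 (edgeR adjusted p = 3.35e-04) rested on 26 counts over the 3 tumor cKO libraries. Nlrp1b, the inflammasome sensor activated by anthrax lethal toxin, had 19.6, 20.5 and 6.43 CPM in tumor cKO, against 33.4, 46 and 29.1 CPM in tumor WT (log2 fold change −1.23 ± 0.379, edgeR adjusted p = 0.0223). Its adjusted p was 0.0619 without tumor WT replicate 2 and 0.0777 in a fit of the 6 tumor libraries alone. Its neighbour Nlrp1c-ps, a pseudogene, had 2.52, 2.95 and 1.67 CPM in tumor cKO, against 6.92, 14.5 and 6.93 CPM in tumor WT (log2 fold change −2.001 ± 0.683, edgeR adjusted p = 0.035). Leaving out any tumor cKO library or tumor WT replicate 2 gave Nlrp1c-ps adjusted p between 0.0677 and 0.114. Nlrp1a, Nlrp1b and Nlrp1c-ps lie side by side on chromosome 11 and are near copies, so the split of reads among them is uncertain. Nlrp1a had 1.67, 0.24 and 0.62 CPM in tumor cKO, against 2.09, 4.67 and 1.15 CPM in tumor WT, and was not called (edgeR adjusted p = 0.148). Nlrp3, the inflammasome sensor of potassium efflux and membrane damage, had 211, 165 and 64.7 CPM in tumor cKO, against 288, 234 and 239 CPM in tumor WT. The Nlrp3 values did not overlap, and its log2 fold change of −0.79 ± 0.477 was not called (edgeR adjusted p = 0.228). Without the filter on low counts the Nlrp3 value was −0.78 and was called (edgeR adjusted p = 5.64e-05).

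None of the 6 NOD, NLRC and NLRX genes was called in tumor cKO against tumor WT in the fit of all 12 libraries. Without tumor cKO replicate 1, Nlrc4, Nod1 and Nlrc5 were called lower (edgeR adjusted p = 0.0104, 0.0477 and 0.0285). Without tumor WT replicate 3, Nod1 and Nlrc5 were called lower (0.0383 and 0.0439). Nod1 was also called lower without the filter on low counts (0.00145). Nod2, which senses muramyl dipeptide, had 14.5, 11.8 and 4.15 CPM in tumor cKO, against 15.1, 15.1 and 13.7 CPM in tumor WT (log2 fold change −0.53 ± 0.486, edgeR adjusted p = 0.415). Nod1, which senses peptidoglycan fragments that carry diaminopimelic acid, had 10.1, 9.26 and 3.29 CPM in tumor cKO, against 13.9, 17.3 and 8.44 CPM in tumor WT (log2 fold change −0.82 ± 0.354, edgeR adjusted p = 0.086). Nlrc4, the partner of NAIP proteins in the flagellin inflammasome, had 7.05, 4.21 and 2.83 CPM in tumor cKO, against 7.56, 9.15 and 5.6 CPM in tumor WT (log2 fold change −0.67 ± 0.298, edgeR adjusted p = 0.0926). Nlrc5, the transactivator of MHC class I genes, averaged 72.1 ± 14.2 CPM in tumor cKO and 90.9 ± 14.8 CPM in tumor WT (SD, n = 3 each), with a log2 fold change of −0.34 ± 0.149 (edgeR adjusted p = 0.0914). Nlrc3, a negative regulator of innate and T-cell signalling, averaged 12.1 ± 1.3 CPM in tumor cKO and 11.8 ± 2.47 CPM in tumor WT (SD, n = 3 each), with a log2 fold change of 0.04 ± 0.192 (edgeR adjusted p = 0.905). Nlrx1, a mitochondrial NLR, had a log2 fold change of −0.29 ± 0.328 (edgeR adjusted p = 0.515).

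In spleen the same comparison gave no call. No receptor gene passed edgeR's test among the 22, and DESeq2 also called 0. Across all tested genes 0.0297% were called by edgeR, all of them higher. An unadjusted p under 0.05 was found for 2 of the 22, and the share of all genes is not given here. Tlr5 had no count in spleen and could not be called there. Nlrp3 had 8 spleen counts and Nlrp1a 2, each in 1 spleen cKO library. These 3 passed the filter through the tumor groups, so their lack of a call is no evidence of equal levels. The median log2 fold change was 0.129 over the receptor genes, with Nlrp3 at its bound, and 0 over all tested genes. Only Tlr3 and Nlrc5 had groups that did not overlap, 2 of 22, while 11.4% of all tested genes had groups without overlap. Tlr3 had 1.03, 2.61 and 2.13 CPM in spleen cKO, against 0.455, 0.151 and 0.567 CPM in spleen WT, from 70 counts over the spleen cKO group and 14 over the spleen WT group (log2 fold change 2.29 ± 1.05, edgeR adjusted p = 1). Nlrc5 had 158, 159 and 167 CPM in spleen cKO, against 148, 145 and 156 CPM in spleen WT, a log2 fold change of 0.11 ± 0.149 (edgeR adjusted p = 1). The receptors with the highest spleen levels had small differences: Tlr1 averaged 45.7 ± 2.59 CPM in spleen cKO and 44.9 ± 5.87 CPM in spleen WT, and Nod1 averaged 50.7 ± 8.09 CPM in spleen cKO and 52.7 ± 4.83 CPM in spleen WT (SD, n = 3 each). The macrophage markers had a median log2 fold change of 1.29 in spleen, none called, with 11 of 12 higher in spleen cKO without overlap.

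**Figure D2:**
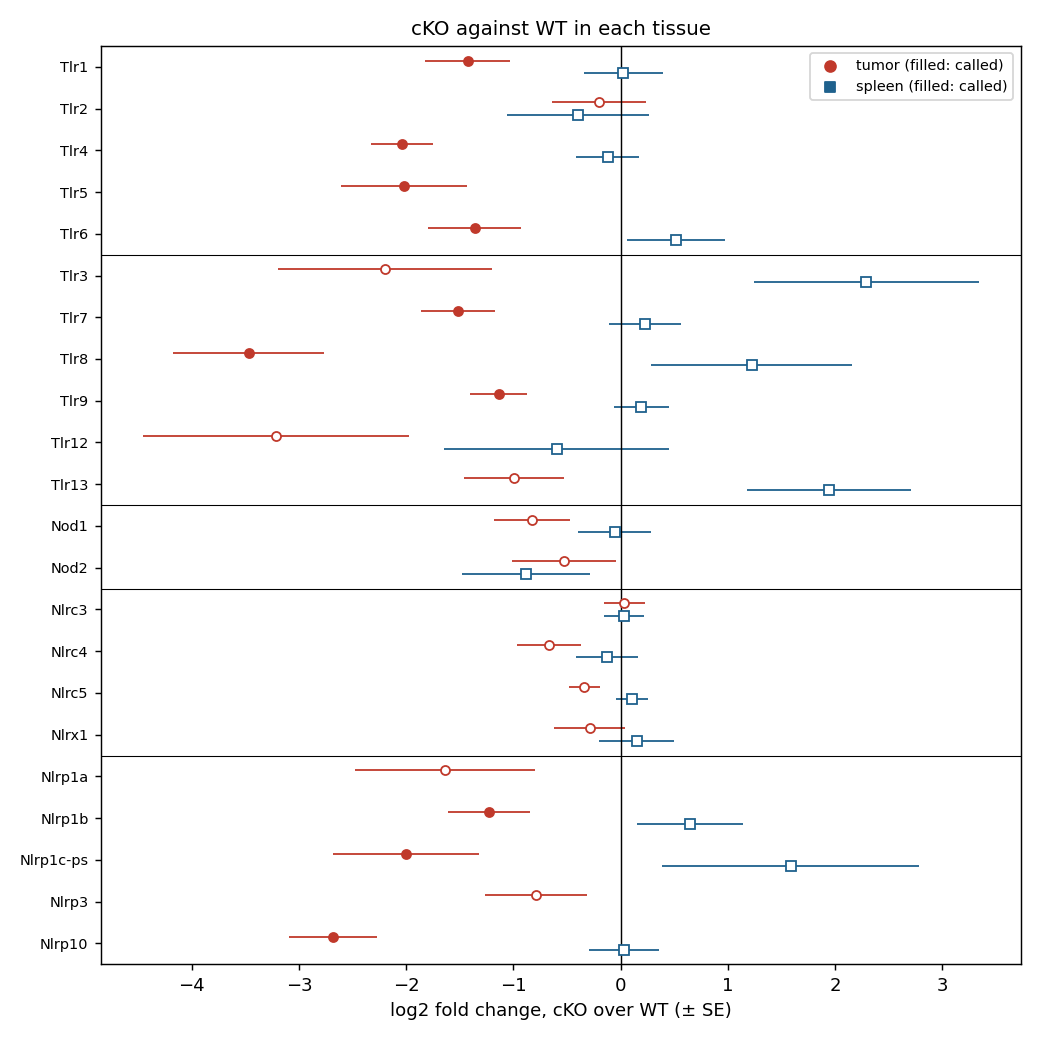
Log2 fold change of cKO over WT with its SE for each receptor gene, in tumor (red circles) and in spleen (blue squares), with filled symbols for genes called at an adjusted p under 0.05; genes with no count in a spleen group have no spleen symbol. The 10 filled symbols are all tumor values below 0, and no spleen symbol is filled.

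Whether the cKO effect differed between the tissues was tested directly, as the tumor effect minus the spleen effect. The difference was called for 7 of 22 receptor genes, all below 0, where 18.3% of all tested genes were called, 7.68% above 0 and 10.6% below 0. Without Tlr5, Nlrp3 and Nlrp1a, which had a group with no count, the median of the difference was −1.75 over 19 receptor genes, and it was −0.0985 over all tested genes. The 7 were Tlr4, Nlrp10 and 5 of the 6 endosomal TLRs tested. Tlr6, Tlr1, Nlrp1b and Nlrp1c-ps had log2 differences of −1.88, −1.45, −1.88 and −3.59. The main fit did not call these (edgeR adjusted p = 0.0533, 0.0822, 0.0529 and 0.0871). DESeq2 called each of them below 0 (adjusted p = 0.0226, 0.0391, 0.0168 and 0.0141). The difference was −1.92 ± 0.408 for Tlr4 (edgeR adjusted p = 0.00759), −2.71 ± 0.523 for Nlrp10 (0.00514) and −4.69 ± 1.15 for Tlr8 (0.0162), on the log2 scale. It was −1.75 ± 0.480 for Tlr7 (0.0241), −1.33 ± 0.371 for Tlr9 (0.0258), −2.94 ± 0.894 for Tlr13 (0.0385) and −4.49 ± 1.44 for Tlr3 (0.0467). Tlr13 and Tlr3 were called for the difference without being called in either tissue: both had positive values in spleen and negative ones in tumor. The Tlr3 difference was lost on omission of any 1 of 10 of the 12 libraries, tumor WT replicates 1 and 3 being the exceptions; it was −3.125 without tumor WT replicate 2 (adjusted p = 0.116) and −3.87 without tumor cKO replicate 3 (0.0552). The Tlr13 call was lost without tumor WT replicate 1 or 3, spleen cKO replicate 2 or 3 or spleen WT replicate 2 or 3 (adjusted p between 0.0573 and 0.114), and under limma on the log2 RPKM values with either pseudocount (0.0705 and 0.0686). The Tlr9 call was lost without spleen cKO replicate 1 or 2 or spleen WT replicate 2 or 3 (adjusted p between 0.0528 and 0.0618), and the Tlr7 call without spleen cKO replicate 3 or any spleen WT library (0.051 to 0.0607). Tlr4, Nlrp10 and Tlr8 kept their calls when any 1 library was left out. The Tlr8 difference was −3.796 without tumor WT replicate 2, −4.073 without spleen WT replicate 1 and −6.02 without spleen WT replicate 3, and the Tlr13 difference −2.241 without spleen cKO replicate 2 and −3.594 without spleen WT replicate 1. The number of calls for the difference lay between 3 (without spleen WT replicate 3) and 8 (without tumor cKO replicate 2 or 3) when 1 library was left out. It was 4 without spleen cKO replicate 2, spleen cKO replicate 3 or spleen WT replicate 2. The macrophage markers had the same direction, with 11 of 12 called below 0. Of the other lists, 3 of 9 dendritic-cell, 2 of 10 NK and 1 of 8 neutrophil genes were called below 0. Of the T-cell genes, 1 of 10 was called above 0 and none below (median log2 difference 0.359). No B-cell gene was called, and 9 of 10 lay above 0 (median 1.07). The part of these cell types in the difference was not tested.

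The second question was which receptors differed between tumor and spleen. In WT, 12 of 22 receptor genes rose in tumor and 7 fell, where 62% of all tested genes were called, 33.9% higher and 28.1% lower. The median log2 fold change was 1.99 over the receptor genes, with the genes that had no count in spleen WT set to their lower bound, and 0.116 over all tested genes; over the 19 receptor genes with counts in every group it was 0.931. In cKO, 8 rose and 9 fell, where 60.5% of all tested genes were called, 31.7% higher and 28.8% lower, with a median of 0.121 over the receptor genes and 0.0713 over all tested genes. The sign of the cKO median turned to −1.16 over the 19 genes without Tlr5, Nlrp3 and Nlrp1a. The groups did not overlap for 17 of 22 in cKO and 20 of 22 in WT, against 70% and 67.4% of all tested genes. Of the other lists, all 12 macrophage genes were higher in tumor WT than in spleen WT, and 9 of 12 were higher in tumor cKO than in spleen cKO. All 10 B-cell genes and all 10 NK genes were lower in tumor in both genotypes. Of 8 tested neutrophil genes, 7 were higher in tumor in WT and 6 in cKO, with none lower. Of 10 T-cell genes, 7 were higher in tumor in WT and 8 in cKO, with none lower. Of 9 tested dendritic-cell genes, 6 were higher and 1 lower in WT, and 2 were higher and 1 lower in cKO. The part of these cell types in the receptor differences was not tested.

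Nlrp3 had the largest difference of the receptor genes in WT. It had 288, 234 and 239 CPM in tumor WT and no count in any spleen WT library, which makes it at least 3070-fold higher against a floor of 3 counts over the spleen WT group (edgeR adjusted p = 8.45e-06). The files do not say how read pairs were counted, and if both mates were counted, a floor set in fragments would hold more counts and every such bound would be lower. In cKO it had 211, 165 and 64.7 CPM in tumor, against 0, 0.802 and 0 CPM in spleen, where all 8 counts came from replicate 2 (edgeR adjusted p = 1.85e-05). Tlr5 had no count in any spleen library and was at least 13.7-fold higher in tumor cKO and at least 48.4-fold higher in tumor WT (edgeR adjusted p = 6.99e-04 and 8.47e-05). Nlrp1a had 59 counts in tumor cKO and 2 in spleen cKO (edgeR adjusted p = 0.0168, lost without tumor cKO replicate 1, spleen cKO replicate 1 or spleen cKO replicate 2). In WT it had no spleen count and was at least 32.6-fold higher in tumor (edgeR adjusted p = 7.91e-04). Tumor WT replicate 2 held 166 of its 221 tumor WT counts, and without that library the bound was 20-fold.

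Tlr2 rose by a log2 fold change of 5.11 ± 0.582 in cKO and 4.90 ± 0.564 in WT (edgeR adjusted p = 1.44e-05 and 1.45e-05). Its spleen values were 0.587, 1.2 and 1.14 CPM in cKO and 0.607, 2.56 and 0.567 CPM in WT, and without spleen WT replicate 2 the WT value was 6.01. Tlr13 rose by 3.21 ± 0.561 in cKO and 6.15 ± 0.675 in WT (edgeR adjusted p = 3.22e-04 and 6.27e-06), with 38 counts over spleen cKO and 10 over spleen WT. The WT value was 6.80 without spleen WT replicate 1, and the cKO value 3.91 without spleen cKO replicate 2. Nod2 rose by 3.19 ± 0.578 in cKO and 2.84 ± 0.545 in WT (edgeR adjusted p = 4.21e-04 and 6.18e-04), and its WT value was 3.47 without spleen WT replicate 2. Nlrp1b rose by 2.92 ± 0.436 in cKO and 4.80 ± 0.471 in WT (edgeR adjusted p = 9.22e-05 and 2.45e-06). Nlrp1c-ps rose by 2.80 ± 0.839 in cKO, from 12 spleen cKO counts (edgeR adjusted p = 0.0115), and by 6.38 ± 0.977 in WT, where all 4 spleen counts came from replicate 2 (edgeR adjusted p = 9.94e-05). Without spleen cKO replicate 2 or replicate 1 the cKO value of Nlrp1c-ps was 3.98 or 2.17.

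In the fit of all 12 libraries, Tlr4, Tlr6, Tlr8 and Nlrx1 were called higher in tumor in WT and were not called in cKO. Tlr4 averaged 7.6 ± 2.4 CPM in tumor cKO and 6.42 ± 1.26 CPM in spleen cKO, and 31.2 ± 3.41 CPM in tumor WT and 6.92 ± 2.22 CPM in spleen WT (SD, n = 3 each). Its log2 fold change was 0.24 ± 0.290 in cKO (edgeR adjusted p = 0.484) and 2.16 ± 0.293 in WT (edgeR adjusted p = 3.12e-05), and the change in cKO minus that in WT equals the tissue difference of −1.92 given above. Tlr8 averaged 1.86 ± 1.08 CPM in tumor cKO and 0.908 ± 0.18 CPM in spleen cKO, and 20.6 ± 16.3 CPM in tumor WT and 0.415 ± 0.483 CPM in spleen WT (SD, n = 3 each). The Tlr8 value in WT was 5.71 ± 0.855 (edgeR adjusted p = 1.11e-04), and it was 4.82 without tumor WT replicate 2, 5.09 without spleen WT replicate 1 and 7.04 without spleen WT replicate 3. In cKO the Tlr8 value was 1.017 ± 0.756 (edgeR adjusted p = 0.263), and 0.431 without tumor cKO replicate 1. Without the filter on low counts the cKO value was 1.091 and was called higher (edgeR adjusted p = 0.034). Tlr6 had a log2 fold change of 0.00 ± 0.442 in cKO (edgeR adjusted p = 0.998) and 1.88 ± 0.451 in WT (edgeR adjusted p = 0.00278), and the difference between these was not called (edgeR adjusted p = 0.0533). Nlrx1 averaged 5.98 ± 1.67 CPM in tumor WT and 3.16 ± 1.12 CPM in spleen WT (SD, n = 3 each; log2 fold change 0.93 ± 0.340, edgeR adjusted p = 0.0291). In cKO its log2 fold change was 0.49 ± 0.338 (edgeR adjusted p = 0.222), and the difference between the genotypes, −0.44 ± 0.477, was not called (edgeR adjusted p = 0.569). The Nlrx1 call was lost without tumor WT replicate 2 or 3 or spleen WT replicate 1 or 2 (adjusted p between 0.0509 and 0.114), without the composition factor (0.0593), without the filter on low counts (0.0561), under limma (0.0588 and 0.0678) and in the 6 WT libraries alone (0.0671), and 11.9% of its exon bases overlap an antisense gene.

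The genes lower in tumor in both genotypes were Nod1, Nlrc3, Nlrc4, Nlrc5, Nlrp10, Tlr1 and Tlr9. Nod1 had 10.1, 9.26 and 3.29 CPM in tumor cKO, against 47.5, 59.9 and 44.8 CPM in spleen cKO, and 13.9, 17.3 and 8.44 CPM in tumor WT, against 49, 50.9 and 58.1 CPM in spleen WT. Its groups were well apart, with log2 fold changes of −2.75 ± 0.368 in cKO and −1.98 ± 0.354 in WT (edgeR adjusted p = 4.64e-05 and 4.17e-04). Nod2, the other peptidoglycan sensor, had the opposite sign, as given above. Nlrc3 changed by nearly the same amount in both genotypes, −1.95 ± 0.196 in cKO and −1.96 ± 0.196 in WT on the log2 scale (edgeR adjusted p = 2.48e-06 and 2.22e-06). Tlr1 had log2 fold changes of −3.21 ± 0.411 in cKO and −1.76 ± 0.383 in WT (edgeR adjusted p = 3.44e-05 and 0.00174). Those of Tlr9 were −2.33 ± 0.274 in cKO and −1.001 ± 0.261 in WT (edgeR adjusted p = 9.78e-06 and 0.00475). Those of Nlrp10 were −4.87 ± 0.417 in cKO and −2.16 ± 0.348 in WT (edgeR adjusted p = 6.27e-07 and 1.38e-04). Nlrp10 averaged 12.1 ± 1.57 CPM in spleen cKO and 11.9 ± 2.24 CPM in spleen WT (SD, n = 3 each), where Nlrp3 was at or near 0. Nlrc4 had log2 fold changes of −1.72 ± 0.302 in cKO and −1.17 ± 0.295 in WT, and Nlrc5 of −1.16 ± 0.151 in cKO and −0.72 ± 0.149 in WT, with edgeR adjusted p between 2.34e-05 and 0.00377 for these 4 values.

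Tlr7 was called lower in tumor in cKO and was not called in WT. It averaged 4.1 ± 2.3 CPM in tumor cKO and 13.9 ± 2.22 CPM in spleen cKO, and 11.7 ± 2.33 CPM in tumor WT and 11.8 ± 0.468 CPM in spleen WT (SD, n = 3 each). Its log2 fold change was −1.76 ± 0.348 in cKO (edgeR adjusted p = 7.43e-04) and −0.01 ± 0.335 in WT (edgeR adjusted p = 0.985). Tlr12 was called lower in tumor cKO than in spleen cKO (edgeR adjusted p = 0.0287), although spleen cKO replicate 2 had no count and the groups overlapped, and the call was lost on omission of any tumor cKO library, spleen cKO replicate 1 or spleen cKO replicate 3. Tlr3 was called in neither genotype by the main fit. In cKO its log2 fold change was −2.39 ± 1.01 (edgeR adjusted p = 0.056). The cKO value was called lower under DESeq2 (0.0343), both limma settings (0.046 and 0.0299) and in the 6 cKO libraries alone (0.0462). It was also called without the filter on low counts (0.0139) or without tumor WT replicate 2 (0.0333). In WT the Tlr3 value was 2.10 ± 1.03 (edgeR adjusted p = 0.0923), and 0.745 without tumor WT replicate 2. The WT value was called higher without the filter on low counts (edgeR adjusted p = 0.0254) or without tumor cKO replicate 3 (0.0398).

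**Figure D3:**
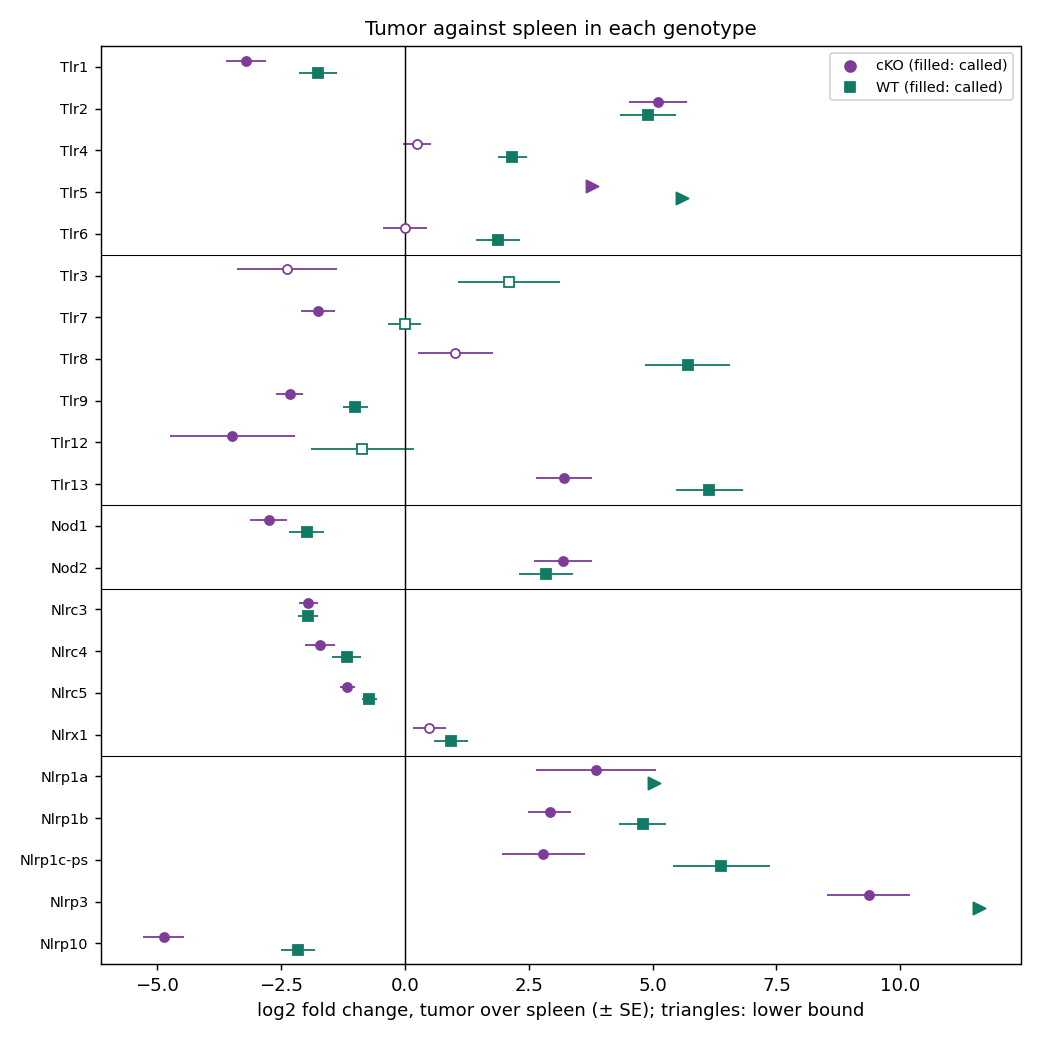
Log2 fold change of tumor over spleen with its SE for each receptor gene, in cKO (purple circles) and in WT (green squares), with filled symbols for called genes and triangles for lower bounds against a spleen group with no count. Nod1, the NLRC genes, Nlrp10, Tlr1 and Tlr9 lie left of 0 in both genotypes, while Tlr4, Tlr6 and Tlr8 lie right of 0 with filled symbols in WT and have open symbols in cKO.

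The sequence before the start site is shown for 6 genes called in the same direction in both genotypes, the 3 with the highest and the 3 with the lowest fitted log2 fold change in tumor WT against spleen WT among those in the table of RefSeq promoters (build GRCm38.p6). The fitted values of Nlrp3, Tlr5 and Nlrp1a rest on a spleen WT group with no count, and by the bounds given above Tlr5 and Nlrp1a are not shown to rise more than Tlr13. Each is the 250 bases before the start, 5′ to 3′ on the gene's strand, with matches to any of 5 motifs on either strand in capitals. The first 3 genes were higher in tumor and the last 3 lower.
Nlrp3, chr11:59541319-59541568, plus strand: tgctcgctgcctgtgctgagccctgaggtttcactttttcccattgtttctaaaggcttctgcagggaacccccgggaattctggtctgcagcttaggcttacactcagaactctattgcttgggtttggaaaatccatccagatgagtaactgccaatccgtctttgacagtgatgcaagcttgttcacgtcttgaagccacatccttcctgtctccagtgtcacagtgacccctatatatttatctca
Tlr5, chr1:182954538-182954787, plus strand: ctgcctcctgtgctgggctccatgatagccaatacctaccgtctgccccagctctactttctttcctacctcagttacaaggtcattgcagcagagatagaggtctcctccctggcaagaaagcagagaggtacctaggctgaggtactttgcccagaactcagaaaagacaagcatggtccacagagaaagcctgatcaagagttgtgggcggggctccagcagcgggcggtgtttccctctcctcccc
Nlrp1a, chr11:71144705-71144954, minus strand: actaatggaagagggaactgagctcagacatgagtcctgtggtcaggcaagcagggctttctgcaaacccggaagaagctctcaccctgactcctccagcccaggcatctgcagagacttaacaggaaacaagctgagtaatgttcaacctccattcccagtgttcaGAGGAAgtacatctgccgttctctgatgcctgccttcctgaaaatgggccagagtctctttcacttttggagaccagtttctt
Nod1, chr6:54972613-54972862, minus strand: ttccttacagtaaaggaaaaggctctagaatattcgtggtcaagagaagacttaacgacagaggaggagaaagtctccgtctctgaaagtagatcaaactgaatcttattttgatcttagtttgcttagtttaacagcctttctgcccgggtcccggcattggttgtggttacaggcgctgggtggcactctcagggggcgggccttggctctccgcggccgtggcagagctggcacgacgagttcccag
Nlrc3, chr16:3976633-3976882, minus strand: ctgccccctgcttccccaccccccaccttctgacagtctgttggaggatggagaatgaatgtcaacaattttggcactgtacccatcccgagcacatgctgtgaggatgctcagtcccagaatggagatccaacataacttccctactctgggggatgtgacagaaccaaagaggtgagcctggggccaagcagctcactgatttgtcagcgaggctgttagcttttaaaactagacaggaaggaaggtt
Tlr1, chr5:64933559-64933808, minus strand: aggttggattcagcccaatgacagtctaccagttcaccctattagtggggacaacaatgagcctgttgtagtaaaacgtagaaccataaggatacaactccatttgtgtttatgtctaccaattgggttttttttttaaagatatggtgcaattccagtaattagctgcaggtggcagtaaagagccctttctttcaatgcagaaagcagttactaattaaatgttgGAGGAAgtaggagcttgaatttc
The motifs were GAGGAA for the core of the PU.1 site, TGANTCA for AP-1, ATGCAAAT for the octamer, and the NF-kB site and the interferon-stimulated response element in their usual consensus. Only Nlrp1a and Tlr1 of the 6 held a match in the window shown, in each case the PU.1 core, 1 gene higher in tumor and 1 lower. Of the 17 tested receptor genes in the table, 7 held the PU.1 core in at least 1 listed window (Nlrp1a, Nlrp1b, Nlrp3, Tlr1, Tlr8, Tlr9 and Tlr13), or 41.2%, against 25.9% of all 27025 genes in the table counted in the same way. Nlrp3, Nod1 and Tlr1 have 2 listed starts each, and the match of Nlrp3 lies in the window not shown. The other 4 motifs had 1 gene each: NF-kB in Tlr3, the response element in Tlr6, and AP-1 and the octamer in Tlr9, or 5.88% for each, against 0.414%, 3.46%, 7.82% and 1.81% of all genes in the table. A match is a run of letters and was not tested as a binding site.

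The genes that work with these receptors were read from 6 lists, of which 94 genes were tested. In tumor cKO against tumor WT, 57 of 94 fell and 3 rose, where 21.6% of all tested genes were lower and 16.4% higher, with a median log2 fold change of −0.77, beside −0.117 over all tested genes. In spleen cKO against spleen WT none was called by edgeR, where 0.0297% of all tested genes were called. An unadjusted p under 0.05 was found for 2, again without the share of all genes beside it. Between the tissues, 20 rose and 39 fell in tumor cKO against spleen cKO, where 31.7% of all tested genes rose and 28.8% fell. In tumor WT against spleen WT, 42 rose and 21 fell, where 33.9% of all tested genes rose and 28.1% fell. Of the coreceptor, chaperone and trafficking genes, 11 of 14 fell in tumor cKO and none rose. Unc93b1, which carries endosomal TLRs out of the endoplasmic reticulum, averaged 104 ± 34.1 CPM in tumor cKO and 340 ± 101 CPM in tumor WT (SD, n = 3 each; log2 fold change −1.70 ± 0.240, edgeR adjusted p = 2.65e-04). Lgmn and Ctsb, which encode proteases of the endolysosome, had log2 fold changes of −2.91 ± 0.290 and −2.70 ± 0.367 (edgeR adjusted p = 4.92e-05 and 2.85e-04).

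Of the adaptor and kinase genes, 9 of 20 fell in tumor cKO and 1 rose. Ticam2, which encodes the bridging adaptor of TLR4, averaged 5.34 ± 2.63 CPM in tumor cKO and 19.4 ± 4.01 CPM in tumor WT (SD, n = 3 each; log2 fold change −1.87 ± 0.360, edgeR adjusted p = 0.00146). Btk, a kinase of B-cell and myeloid signalling, had a log2 fold change of −1.76 ± 0.288, and Ikbkb, a kinase that releases NF-kB, of −0.60 ± 0.105 (edgeR adjusted p = 6.76e-04 and 7.60e-04). Of the transcription factors, 10 of 12 fell and none rose, among them Irf5 (−1.13 ± 0.155), Irf1 (−1.01 ± 0.131) and Spi1, which encodes PU.1 (−1.69 ± 0.259), with edgeR adjusted p of 1.84e-04, 1.36e-04 and 4.15e-04. Spi1 averaged 45.9 ± 19.4 CPM in tumor cKO, 148 ± 7.46 CPM in tumor WT, 28.5 ± 3.7 CPM in spleen cKO and 30.3 ± 1.85 CPM in spleen WT (SD, n = 3 each).

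Of the brakes on TLR signalling, 10 of 14 fell in tumor cKO and none rose. They included Dusp1, a MAP kinase phosphatase (log2 fold change −1.52 ± 0.359), Zc3h12a, an RNase that degrades inflammatory transcripts (−1.17 ± 0.274), and Rnf216, a ubiquitin ligase (−0.60 ± 0.115), with edgeR adjusted p of 0.0066, 0.005 and 0.00138. Of the NOD signalling genes, 7 of 15 fell and none rose. Ripk2, the kinase shared by NOD1 and NOD2, averaged 6.6 ± 1.52 CPM in tumor cKO and 26.9 ± 1.28 CPM in tumor WT (SD, n = 3 each). Its log2 fold change was −2.03 ± 0.320 (edgeR adjusted p = 4.28e-04). Neither Nod1 nor Nod2 was called in the fit of all 12 libraries. Nod1 was called lower when tumor cKO replicate 1 or tumor WT replicate 3 was left out. Birc3, a ubiquitin ligase of this pathway, and Card6, which encodes a caspase-recruitment domain protein, had log2 fold changes of −1.03 ± 0.212 and −0.97 ± 0.147 (edgeR adjusted p = 0.00245 and 3.29e-04). Of the inflammasome partners, 10 of 19 fell and 2 rose. P2rx7, the ATP-gated channel upstream of NLRP3, averaged 7.66 ± 4.18 CPM in tumor cKO and 57.5 ± 10.4 CPM in tumor WT (SD, n = 3 each; log2 fold change −2.92 ± 0.385, edgeR adjusted p = 1.75e-04). Txnip, a regulator of thioredoxin, had a log2 fold change of −0.98 ± 0.155 (edgeR adjusted p = 4.38e-04). Dfna5, which encodes the pore-forming protein gasdermin E, went the other way, with 62.1 ± 5.63 CPM in tumor cKO and 25.3 ± 5.9 CPM in tumor WT (SD, n = 3 each; log2 fold change 1.29 ± 0.213, edgeR adjusted p = 5.49e-04).

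**Figure D4:**
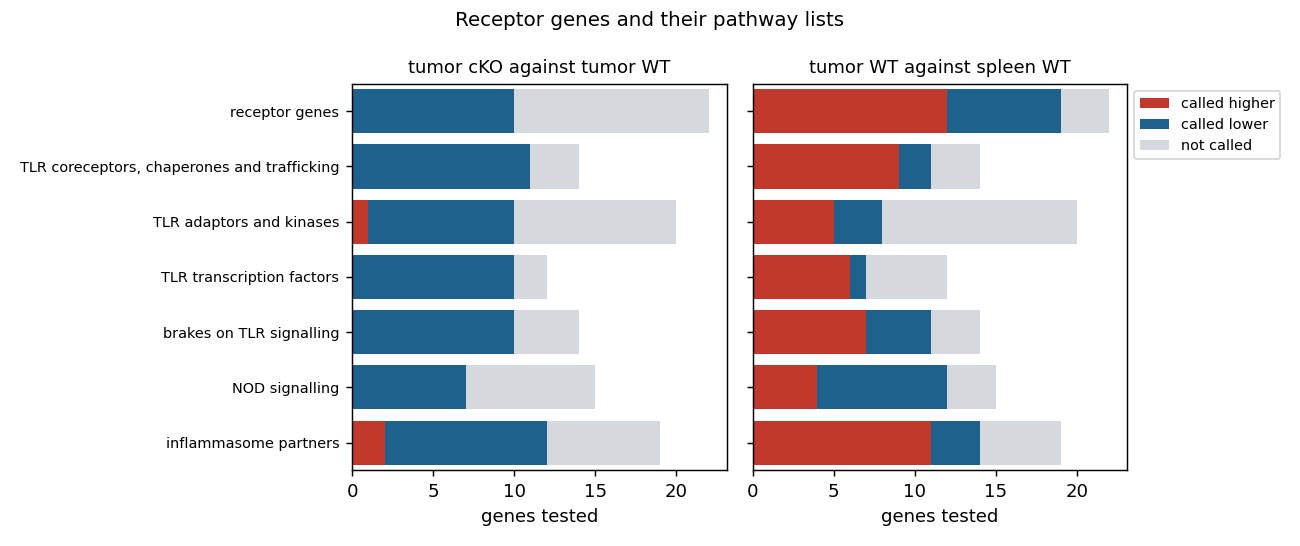
Number of tested genes called higher, called lower or not called in the receptor set and in 6 lists of genes that work with the receptors, for tumor cKO against tumor WT (left) and tumor WT against spleen WT (right). In the left panel 10 of 22 receptor genes and 57 of 94 list genes were lower, and in the right panel 12 of 22 and 42 of 94 were higher.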

How the data were processed

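Bulk RNA-seq of 12 mouse samples was read from tables of the whole series. The authors deposited read counts per gene, not normalized, and RPKM values, per the file headers. Reads were aligned with TopHat2 2.0.6 to mm10, per the submitters' processing notes; no label or header names the counting tool, its strand setting or its handling of read pairs. Even numbers made up 68.8% to 73.3% of counts between 1 and 49, depending on the library. The deposited RPKM matched values computed from the counts in 100% of cells at a relative tolerance of 0.001.

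Counts were tested with edgeR 4.0.16 in R 4.3.3 (quasi-likelihood test, robust, TMM, low counts removed with filterByExpr), with 1 mean per group over all 12 libraries and 8 residual degrees of freedom. Two-sided p-values were adjusted by Benjamini-Hochberg over 16831 genes, and SE is that of the log2 fold change. CPM used library totals with TMM factors. Folds against a group with no count were bounded with 3 counts in its pooled libraries, a limit of counting error only; if both mates of a pair were counted, the floor in fragments would hold more counts and the bounds would be lower. DESeq2 1.42.0 and limma 3.58.1 on log2(RPKM + 0.5) or log2(RPKM + 0.1) were alternatives. The fit was also run on simulated data with the same spread for every gene, and the outcome is not given here. Changes were put only into genes above a set count level, so that run does not measure power for receptors with few counts.

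Every tested receptor gene is named; of the pathway lists, up to 3 called genes per list and comparison with the smallest p and a mean log2 CPM of at least 2 were eligible. The promoters shown and the motifs were chosen after the values were seen. The receptor set, gene lists and marker lists were chosen with earlier results of these data known. Of the list symbols, 1 had no matching row, and Gsdme is listed as Dfna5. Gene positions are on mm10, as deposited. The knocked-out gene is not reported here.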

Additional observations from a re-analysis of the deposited data

Results flagged for a closer look

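The cKO effect differed between tumor and spleen for 7 receptor genes, by the test of the difference itself (edgeR's quasi-likelihood test on the tumor effect minus the spleen effect, adjusted over all genes). The log2 differences were −1.92 for Tlr4, −2.71 for Nlrp10, −4.69 for Tlr8, −1.75 for Tlr7, −1.33 for Tlr9, −2.94 for Tlr13 and −4.49 for Tlr3. Tlr8, Tlr13 and Tlr3 had few counts in spleen WT, with 14, 10 and 14 over the 3 libraries. The Tlr13, Tlr7, Tlr9 and Tlr3 calls were each lost when any 1 of several libraries was left out, and those of Tlr4, Nlrp10 and Tlr8 were not. No outlier test was run on groups of 3 libraries.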

How the results depend on the processing

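No receptor result changed its direction among called values. Without the filter on low counts, all 35 receptor genes entered the fit, also the 13 not tested above. Calls then rose to 17 in tumor cKO against tumor WT (17 lower). Among the 22 genes tested above, Nlrp3, Nod1, Tlr3, Tlr12 and Tlr13 gained a call there. The remaining gains were among the 13 genes not tested above, whose values in that fit are not given here. Calls rose to 1 in spleen (1 higher, Tlr13, edgeR adjusted p = 0.0346) and to 12 for the difference of the cKO effect (12 lower). The share of all genes called without the filter is not given here, so these counts have no background beside them. DESeq2, with the filter, gave 11 for the difference (11 lower). With 1 library left out, tumor cKO against tumor WT had 7 to 11 calls (7 to 11 lower, 0 higher), spleen 0, tumor cKO against spleen cKO 15 to 18 (7 to 8 higher, 8 to 10 lower), tumor WT against spleen WT 18 to 20 (11 to 13 higher, 7 to 8 lower) and the difference 3 to 8 (3 to 8 lower). The cause was not tested. The labels do not say whether the replicate numbers pair the samples. Deviations of same-numbered libraries correlated between −0.0831 and 0.103 over 18 pairs. Those of differently numbered libraries correlated between −0.0724 and 0.117 over 36 pairs. With 3 libraries per group, such values cannot show or exclude a shared mouse or day. With the replicate block, calls were 9 in tumor, 0 in spleen, 17 and 19 between the tissues in cKO and WT, and 7 for the difference; of 110 receptor results 107 kept their call, 1 was gained (the Nlrp1b difference, adjusted p = 0.0176) and 2 were lost (Tlr5 in tumor, 0.0616, and the Tlr3 difference, 0.0824). Depth limits Tlr3, Tlr12, Nlrp1a and the receptors with few spleen counts.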
